A study of Mus musculus with 11 samples.

Results

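The genes described here are 38 splicing regulators of mouse T cells, followed through activation and mTOR inhibition. They are 20 heterogeneous nuclear ribonucleoproteins (hnRNPs) and 18 other regulators of the PTB, TIA, MBNL, CELF, ELAV, STAR and RBM families and of nuclear speckles. They were chosen by symbol from 55414 genes in the gene table, and their 476 transcripts were taken from 142435 in the transcript table. Of the 38, all passed the filter on low counts, among 22238 genes tested.

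Splicing regulators bind short motifs in nascent RNA and promote or block the use of nearby splice sites. Many hnRNPs repress exons, and many genes of the class also make transcripts with an early stop or a retained intron, which are degraded or kept in the nucleus and lower the output of protein. Naive T cells keep little RNA and protein synthesis, and stimulation through the receptor starts growth, in part through the kinase mTOR.

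All libraries came from OT-I CD8+ T cells, which carry 1 transgenic receptor that recognises an ovalbumin peptide, so these T cells can respond to the peptide N4. The Torin group received N4 with Torin, an mTOR inhibitor (3 libraries, numbers 1, 3 and 4). The stimulated group received N4 with the solvent DMSO (4 libraries), and the naive group stayed untreated (4 libraries), all for 12 h. Whether each library had its own mouse is not stated in the labels, and the p-values therefore reflect the variation among these libraries, which may be technical. These are bulk samples, in which fewer cells of a type and less RNA per cell cannot be told apart.

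Totals ran from 241865667 to 405884097 estimated counts per library. Levels are given as CPM, the counts scaled to a common library size after TMM correction for composition. The 7 CD8 T cell markers summed to 4050 to 4210 CPM in Torin, 2210 to 3020 CPM in stimulated and 5090 to 6400 CPM in naive libraries. The libraries of number 4 also held B cell transcripts. The 6 B cell markers summed to 13200 CPM in Torin 4, 14400 CPM in stimulated 4 and 47400 CPM in naive 4. Outside number 4 they summed to 222 to 366 CPM in naive and 38.5 to 117 CPM in stimulated and Torin libraries. The 7 granulocyte markers reached 2060 CPM in stimulated 2 and 8350 CPM in naive 2. The other naive libraries had 130 to 168 CPM, and the remaining stimulated and Torin libraries 15.9 to 50.6 CPM. The 6 monocyte and macrophage markers summed to 106 to 1990 CPM in naive libraries and 5.13 to 72.7 CPM in the others. The part of these cells in the results was not tested, so counts without number 4 or number 2 are given below. Leaving out either number does not remove the higher marker levels of the remaining naive libraries. Some members, such as Hnrnpa1, have processed pseudogenes, and how reads shared with such copies were assigned is not given in the sources used here.

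Stimulation divided the regulators. Against naive cells, 12 members were higher, 13 were lower and 13 did not pass the edgeR quasi-likelihood test (adjusted p under 0.05 over all genes). Of all genes tested, 19.2% were called higher and 20.2% lower. With a filter at a mean CPM of at least 5, 12 members were higher and 15 lower. Of the 8550 genes kept by that filter, 32.5% were higher and 36.3% lower, so the shares of members called were near those of the genes kept. Among the 20 hnRNP genes 9 were higher and 3 lower, and among the 18 other regulators 3 were higher and 10 lower. The median log2 change was 0.18 for the members and -0.22 for all genes. In 12 of the members the stimulated libraries all lay above the naive ones and in 12 all below, which 19.8% and 21.7% of all genes did.

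The split depended on scaling. With library totals alone 4 members were higher (Hnrnpa1, Hnrnpab, Hnrnpc and Rbm3) and 17 lower, where 11.7% of all genes were higher and 29.4% lower and their median moved to -0.71. Relative to the median of all genes, the median member stood 0.40 higher with composition factors and 0.39 higher with totals alone, with 23 members above and 15 below under both. A change of scaling shifts all genes by nearly the same amount, so this agreement was built in and does not test the split. Without the libraries of number 4, 11 members were higher and 9 lower, and without those of number 2, 11 were higher and 11 lower. The calls of Hnrnpm, Hnrnph3 and Qk ended under both omissions.

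**Figure D1:**
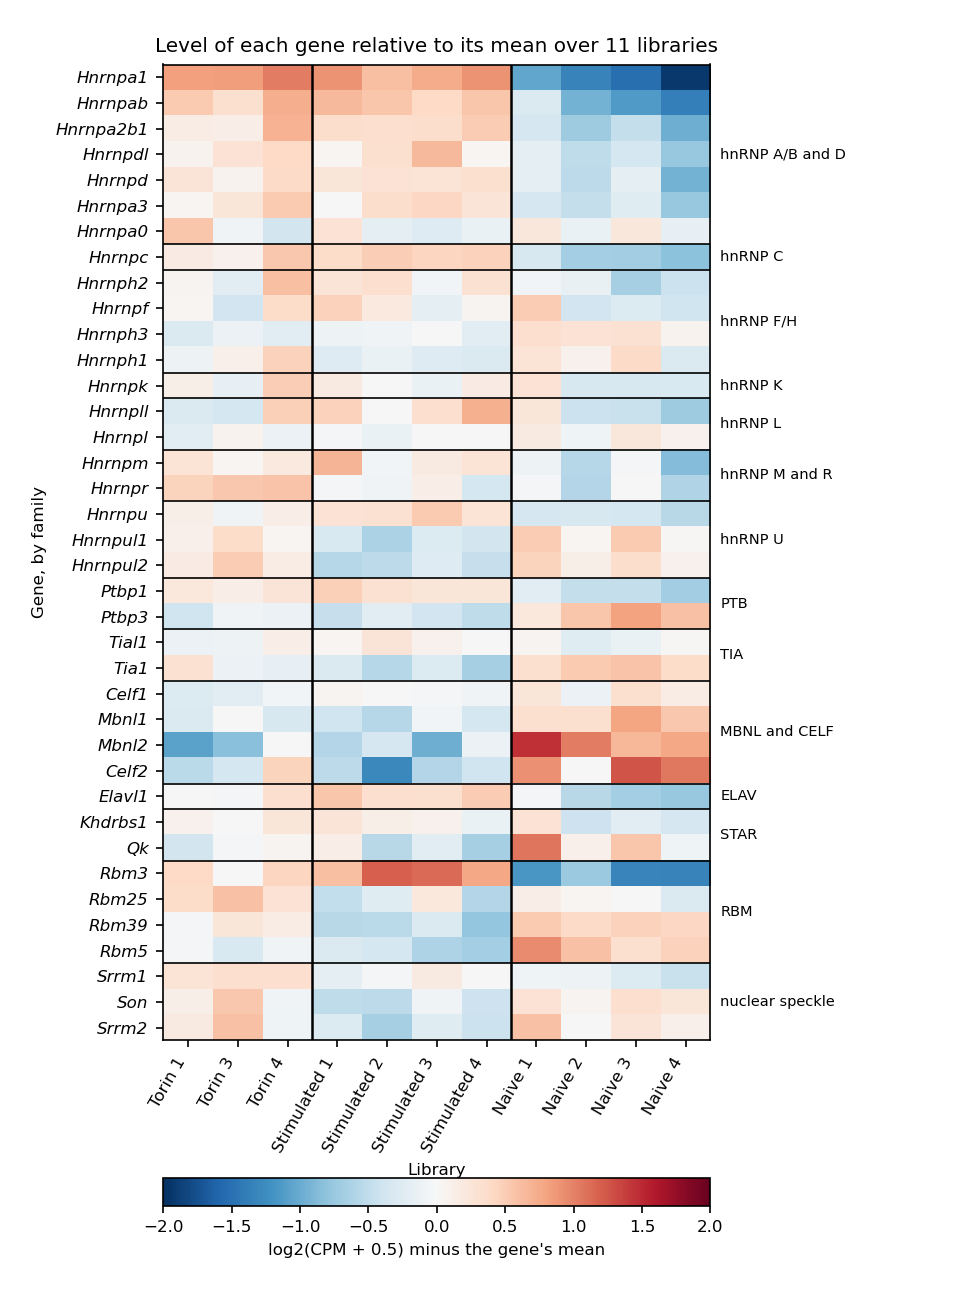
Heat map of log2(CPM + 0.5) minus each gene's mean for 38 genes (rows, by family) in 3 Torin, 4 stimulated and 4 naive libraries (columns). Hnrnpa1, Hnrnpab and Rbm3 are below their mean in all 4 naive libraries, and Mbnl2 and Rbm5 are highest there. Celf2 is also high in naive libraries, but Torin 4 (41.6 CPM) lies above naive 2 (30.8 CPM).

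The hnRNP A/B and D family, exon repressors and mRNA-binding shuttling proteins, was higher in 6 of 7 genes. Hnrnpa1, whose protein blocks exon inclusion and travels with mRNA, had 377, 378 and 430 CPM in Torin libraries. It had 395, 324, 356 and 396 CPM in stimulated libraries, against 103, 83.7, 74.2 and 55.4 CPM in naive libraries. Every naive library lay far below every other, and stimulated cells were 4.66-fold higher (log2 change 2.22, SE 0.18, edgeR adjusted p = 1.03e-05).

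Hnrnpab, a single-strand RNA and DNA binder, had 437, 412, 369 and 412 CPM in stimulated and 230, 145, 127 and 108 CPM in naive libraries. The groups stood apart (log2 change 1.42, edgeR adjusted p = 0.000371). Hnrnpa2b1, a close relative of Hnrnpa1, averaged 379 ± 22.4 CPM in stimulated and 190 ± 35.7 CPM in naive cells (SD, n = 4 each; log2 change 1.0). Hnrnpd, whose protein AUF1 binds AU-rich mRNA, its relative Hnrnpdl and Hnrnpa3 rose less, by 0.72, 0.73 and 0.71 on the log2 scale. Hnrnpa0 had 42.2 ± 7.69 CPM in stimulated and 45.4 ± 6.87 CPM in naive cells and did not pass (adjusted p = 0.732, edgeR). With library totals alone, the calls of Hnrnpa2b1 (0.50), Hnrnpa3 (0.21), Hnrnpd (0.22) and Hnrnpdl (0.21) ended.

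Hnrnpc, which binds uridine tracts and covers cryptic exons, rose to 373 ± 14.7 CPM in stimulated cells, against 179 ± 28.7 CPM in naive cells (log2 change 1.06, edgeR adjusted p = 0.000193). Hnrnpm rose by 0.65 (edgeR adjusted p = 0.0302), with libraries that overlapped. Its call ended without stimulated 1 (0.49), stimulated 4 (0.65), naive 2 (0.58) or naive 4 (0.51). In the hnRNP U family, Hnrnpu, a nuclear scaffold protein, rose by 0.74 (SE 0.11, edgeR adjusted p = 0.000417), while its relatives Hnrnpul1 and Hnrnpul2 fell by 0.70 and 0.76. With library totals alone, Hnrnpu (0.24) and Hnrnpm (0.16) did not pass.

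The G-tract binders of the F/H family mostly did not pass. Only Hnrnph3 of its 4 genes fell, to 21.9 ± 1.42 CPM in stimulated cells, against 28.1 ± 2.36 CPM in naive cells (log2 change -0.36, edgeR adjusted p = 0.0313). That call ended when any library other than Torin 3 or naive 4 was left out, at -0.27 to -0.37. Hnrnpf, Hnrnph1 and Hnrnph2 had log2 changes of 0.23, -0.38 and 0.53, and Hnrnph1 passed without naive 4 (-0.50). Hnrnph2 passed in the fit with the replicate number as a block (edgeR adjusted p = 0.0267) and without Torin 4 (0.62), stimulated 3 (0.70) or naive 1 (0.62).

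Hnrnpk, a binder of cytidine-rich RNA, and Hnrnpr did not pass, with log2 changes of 0.19 and 0.21. Neither did the CA-repeat binder Hnrnpl (-0.14, and -0.64 with a call under library totals alone) or its relative Hnrnpll (0.72, adjusted p = 0.0583, edgeR), known for skipping of variable exons of the phosphatase gene Ptprc (CD45) in activated T cells. Hnrnpll had 14.5, 10.4, 13.3 and 17.5 CPM in stimulated libraries, against 12.5, 7.61, 7.5 and 6.21 CPM in naive libraries. Naive 1 overlapped the stimulated group, and the gene passed without naive 1 (0.97), stimulated 2 (0.84) or Torin 4 (0.81).

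The polypyrimidine tract binders moved in opposite directions. Ptbp1, a broad exon repressor, had 76.9, 68.8, 65.3 and 65.6 CPM in stimulated libraries, against 47.6, 39.5, 39.6 and 34.1 CPM in naive libraries. Its relative in blood cells, Ptbp3, had 23.2, 27.7, 24.5 and 22.6 CPM in stimulated libraries, against 37.2, 47.7, 56.6 and 48.7 CPM in naive libraries. Neither gene's groups overlapped. The log2 changes were 0.78 for Ptbp1 (edgeR adjusted p = 0.000529) and -0.96 for Ptbp3 (adjusted p = 0.000474), and Ptbp1 did not pass with library totals alone (0.30).

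Regulators of the MBNL and CELF families, which set tissue-specific exon use, fell in 3 of 4 cases. Celf2, known for signal-dependent splicing in human T cell lines, had 21, 12.2, 20.2 and 23.1 CPM in stimulated libraries, against 57.6, 30.8, 73.4 and 63.5 CPM in naive libraries (log2 change -1.56, SE 0.31, edgeR adjusted p = 0.0023). Mbnl2 had 6.20, 7.45, 4.59 and 8.72 CPM in stimulated libraries, against 27, 19.9, 15.4 and 16.6 CPM in naive libraries (log2 change -1.55, SE 0.30). Both genes' groups stood apart, although naive 2 was the lowest naive library for Celf2. Mbnl1 fell by 0.84, and Celf1 (-0.17) did not pass, except with library totals alone (-0.66) or at a mean CPM of at least 5 (-0.30).

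Of the remaining families, Elavl1, whose protein HuR stabilises AU-rich mRNA, rose by 0.92 (edgeR adjusted p = 0.00154), though not with library totals alone (0.42). Tia1, which promotes weak 5′ splice sites and enters stress granules, fell by 0.91 (edgeR adjusted p = 0.000806), while its paralog Tial1 had a log2 change of 0.17 and did not pass. The STAR gene Qk fell by 0.84 with overlapping libraries, and its call ended when any library other than stimulated 1, naive 2 or naive 4 was left out (-0.56 to -0.84). Its relative Khdrbs1, which encodes Sam68, had a log2 change of 0.24, and it passed without naive 1 (0.41).

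The 4 RBM genes differed. Rbm3, a cold-inducible protein that favours translation, had 675, 516 and 690 CPM in Torin libraries. It had 778, 1170, 1120 and 879 CPM in stimulated libraries, against 229, 307, 205 and 203 CPM in naive libraries. Stimulated cells were 4.19-fold higher than naive cells with no overlap (log2 change 2.07, SE 0.19, edgeR adjusted p = 2.07e-05). Rbm5, which interferes with splice site pairing at the death receptor gene Fas in human cells, fell by 1.09 (edgeR adjusted p = 0.000342). Rbm25 (-0.23) did not pass, except with library totals alone (-0.75).

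Among the nuclear speckle proteins, Son and Srrm2, which form the core of speckles, fell by 0.60 and 0.64 (edgeR adjusted p = 0.0118 and 0.0174). The splicing coactivator Srrm1 did not pass (0.22). The call of Srrm2 ended without stimulated 2 (-0.56), and the calls of Srrm2 (-0.58) and Son (-0.48) ended without the libraries of number 4.

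Per length, Rbm3 had the highest level of the 38 in each group, at 417 ± 69.0 TPM in Torin (n = 3), 575 ± 87.5 TPM in stimulated and 214 ± 58.0 TPM in naive cells (SD, n = 4 each). In naive cells Rbm39 was close behind at 213 ± 50.6 TPM, within the spread of Rbm3. Qk was the lowest in each group, at 0.581 ± 0.0944 TPM in Torin, 0.463 ± 0.223 TPM in stimulated and 1.38 ± 0.853 TPM in naive cells.

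Rbm39 encodes a splicing factor related to U2AF, and the 3 groups of libraries held separate ranges of its level. It had 207, 249 and 232 CPM in Torin libraries, 143, 144, 172 and 123 CPM in stimulated libraries and 301, 273, 288 and 278 CPM in naive libraries. The groups did not overlap, with Torin libraries between the others. Torin against naive cells did not pass the test, however (log2 change -0.31, adjusted p = 0.102, edgeR). Stimulated cells were lower than naive cells (log2 change -0.97, SE 0.13, edgeR adjusted p = 0.000132), and Torin cells were higher than stimulated cells (log2 change 0.65, SE 0.13, adjusted p = 0.0243).

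In Torin against stimulated cells 2 of the 38 members were higher, Rbm39 and Hnrnpul2, none was lower and 36 did not pass. Of all genes tested, 2.32% were called higher and 2.3% lower (4.62% in either direction), so the share of members called was near that of all genes. At an unadjusted p under 0.05, 12 members passed, as did 20.0% of all genes. Hnrnpul2, a relative of the scaffold protein Hnrnpu, had 7.51, 9.62 and 7.43 CPM in Torin libraries, against 4.33, 4.48, 5.46 and 4.68 CPM in stimulated libraries. Every Torin library lay above every stimulated one (log2 change 0.79, SE 0.18, edgeR adjusted p = 0.0336).

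These calls were close to the threshold. The replicate numbers paired the libraries, and with the number as a block 1 member passed and Hnrnpul2 did not (0.75, adjusted p = 0.0525, edgeR). The call of Rbm39 ended without Torin 1, Torin 3, Torin 4, stimulated 2 or stimulated 4 (0.58 to 0.72), and that of Hnrnpul2 without any Torin library, stimulated 1, stimulated 2 or stimulated 4 (0.66 to 0.87). Neither passed without the libraries of number 4 or of number 2. In the other direction, DESeq2 called 7 members higher and 2 lower, where it called 5.28% of all genes higher and 7.04% lower. A filter at a mean CPM of at least 5 left 7 members higher and 1 lower, where 8.0% of the genes kept were higher and 8.12% lower.

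In 10 members the Torin libraries all lay above the stimulated ones, and in 2, Hnrnpu and Rbm3, all lay below, as did 9.56% and 10.1% of all genes. The 10 included all 3 speckle genes. Srrm2 had 187, 249 and 156 CPM in Torin libraries, against 137, 104, 140 and 123 CPM in stimulated libraries (log2 change 0.64, adjusted p = 0.0952, edgeR). Son had 197, 262 and 173 CPM in Torin libraries, against 127, 125, 173 and 136 CPM in stimulated libraries, where Torin 4 and stimulated 3 nearly met (0.59, adjusted p = 0.0813, edgeR). Srrm1 had a log2 difference of 0.32 (adjusted p = 0.206, edgeR).

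Hnrnpr, which binds mRNA and its translation machinery, had 25.9, 27.6 and 28.2 CPM in Torin libraries, against 18.4, 18, 20.8 and 14.7 CPM in stimulated libraries (0.60, adjusted p = 0.113, edgeR). Rbm25, a regulator of 5′ splice sites, had 126, 147 and 120 CPM in Torin libraries, against 69.2, 83.2, 113 and 64.9 CPM in stimulated libraries (0.67, adjusted p = 0.0833, edgeR). It passed when stimulated 3, the nearest to the Torin group, was left out (0.81). Hnrnpul1 (0.58), Tia1 (0.48) and Hnrnph1 (0.42) completed the 10. For Rbm3 the difference between Torin and stimulated cells was -0.65 (adjusted p = 0.103, edgeR), and for Hnrnpu it was -0.28 (adjusted p = 0.237, edgeR).

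The hnRNP A/B and D genes did not pass in this comparison, and their median log2 difference was -0.01. For Hnrnpa1, Torin libraries overlapped stimulated ones, at means of 395 ± 30.1 CPM (n = 3) and 368 ± 34.5 CPM (n = 4). The comparison of Torin with stimulated cells and that of stimulated with naive cells share the stimulated libraries, so their values are only set side by side.

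**Figure D2:**
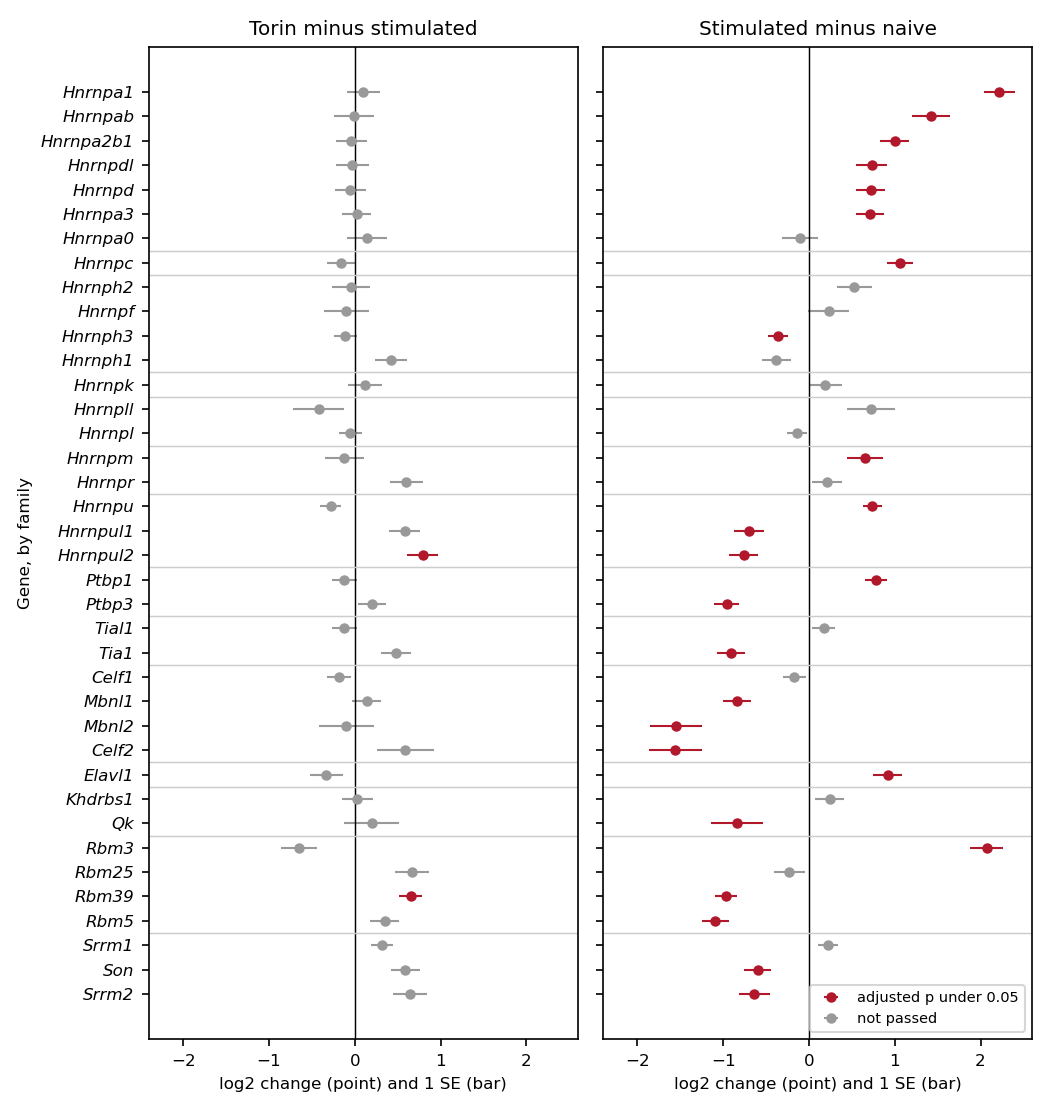
Log2 change of each of 38 genes (points) with 1 standard error (bars), in Torin minus stimulated cells on the left and stimulated minus naive cells on the right, red where the edgeR adjusted p was under 0.05. Only Rbm39 (0.65) and Hnrnpul2 (0.79) are red on the left, whereas 25 genes are red on the right, from -1.56 for Celf2 to 2.22 for Hnrnpa1.

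Set directly against naive cells, Torin cells had 13 members higher, 6 lower and 19 that did not pass, where 16.4% of all genes were higher and 15.8% lower. This balance too depended on scaling. With library totals alone 3 members were higher and 10 lower, where 10.3% of all genes were higher and 20.5% lower and their median moved to -0.52. In 15 members every Torin library lay above every naive one and in 7 below, as in 21.1% and 22.4% of all genes. The genes given values for this comparison were chosen after their values were seen. Hnrnpa1 (log2 change 2.32), Hnrnpab (1.41) and Rbm3 (1.41) were again among those higher, and Mbnl2 fell by 1.64 (edgeR adjusted p = 0.00348). Hnrnpr (0.81, edgeR adjusted p = 0.00824) and Srrm1 (0.54, adjusted p = 0.00955) passed here. Both of those calls ended with library totals alone (0.45 and 0.20). Rbm39, at 229 ± 20.9 CPM in Torin (n = 3) and 285 ± 12.4 CPM in naive cells (n = 4), did not pass (adjusted p = 0.102, edgeR). Without the libraries of number 4, 9 members were higher and 1 lower, where 13.1% of all genes were higher and 10.4% lower. Without the libraries of number 2, 11 members were higher and 5 lower, where 14.6% of all genes were higher and 14.6% lower.

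Transcript classes moved with stimulation as well. Transcripts annotated as subject to nonsense-mediated decay, as retaining an intron, or as otherwise noncoding were summed per gene and set against its protein-coding transcripts. The classes follow the annotation, and a transcript annotated for decay can hold a long reading frame. The share of the noncoding and decay class could be tested with limma in 28 members, among 8095 genes. Against naive cells, stimulated cells had a lower share in 9 members and a higher share in 1, where 12.6% of all genes were lower and 11.9% higher. The median log2 ratio change was -0.45 for the 28 and 0.00 for all genes. Without the libraries of number 4 the share was lower in 7 members and higher in 1, where 7.58% of all genes were lower and 7.07% higher. Without the libraries of number 2 the share was lower in 5 and higher in none, where 9.04% of all genes were lower and 9.23% higher. The transcripts were quantified from short reads by the authors, so these shares are estimates.

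Rbm39 had the smallest adjusted p, although the log2 ratios of Hnrnpd and Elavl1 changed more (-2.34 and -1.61). The class in Elavl1 had only 0.475 CPM in stimulated and 1.01 CPM in naive cells, near the prior of 0.5 CPM in the ratio. The Elavl1 shares of the 2 groups overlapped. The share of Rbm39 was 38.1, 36.5 and 32.2% in Torin libraries, 29.8, 27.3, 26.8 and 26.6% in stimulated libraries and 53.4, 54.8, 51.2 and 52.9% in naive libraries. The groups did not overlap, and the log2 ratio in stimulated minus naive cells was -1.56 (SE 0.16, limma adjusted p = 0.000205). Its noncoding and decay class had 81.5 ± 8.45 CPM in Torin (n = 3), 40.2 ± 5.69 CPM in stimulated and 151 ± 6.37 CPM in naive cells (SD, n = 4 each). Its coding transcripts had 148 ± 17 CPM in Torin, 105 ± 15.1 CPM in stimulated and 134 ± 8.21 CPM in naive cells.

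The exon that carries the early stop in transcript Rbm39-225 is printed first below, with the corresponding exon of Hnrnpl. The sequences are from GENCODE M21 on GRCm38, read 5′ to 3′ on the gene's strand, and capitals mark the in-frame stop codon.
Rbm39, 73 nt, chr2:156178880-156178952, minus strand: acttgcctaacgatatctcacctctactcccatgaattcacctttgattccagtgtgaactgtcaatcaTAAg
Hnrnpl, 70 nt, chr7:28817335-28817404, plus strand: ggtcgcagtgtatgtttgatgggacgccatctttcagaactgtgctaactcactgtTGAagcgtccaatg

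The Rbm39 exon adds 69 nt of reading frame before a TAA, after which 15 exon junctions follow in Rbm39-225. In all, 7 of the gene's 25 transcripts cover this stretch, as an exon of its own or within a longer exon that continues into the intron, as in Rbm39-205. These 7 held 33.1, 32.7 and 29.5% of Rbm39 counts in Torin libraries, 26.6, 25, 24.6 and 23.5% in stimulated libraries and 50.8, 51.8, 47.9 and 50.8% in naive libraries. No library of a group overlapped another group. These shares of counts were not divided by transcript length. Per length, the 7 held 51.6 to 55.6% in Torin, 45.9 to 46.9% in stimulated and 68.4 to 70.9% in naive libraries, also without overlap.

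Single transcripts of Rbm39 were tested as log2 ratios to the gene's other transcripts. Rbm39-225 held 8.14 ± 2.41% of counts in Torin (n = 3), 6.75 ± 2.13% in stimulated and 18 ± 1.62% in naive cells (SD, n = 4 each; log2 ratio change in stimulated minus naive cells -1.59, limma adjusted p = 0.00365). The intron-retaining Rbm39-205 held 15 ± 1.47% in Torin, 9.92 ± 0.728% in stimulated and 18.3 ± 1.63% in naive cells (-0.99, limma adjusted p = 0.00302). The coding Rbm39-203 held 21.9 ± 12.4%, 35.4 ± 7.77% and 6.66 ± 6.78% in those groups (3.48, limma adjusted p = 0.0145), with a wide spread within groups. The call of Rbm39-203 ended without the libraries of number 4 (2.77) or of number 2 (3.21).

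**Figure D3:**
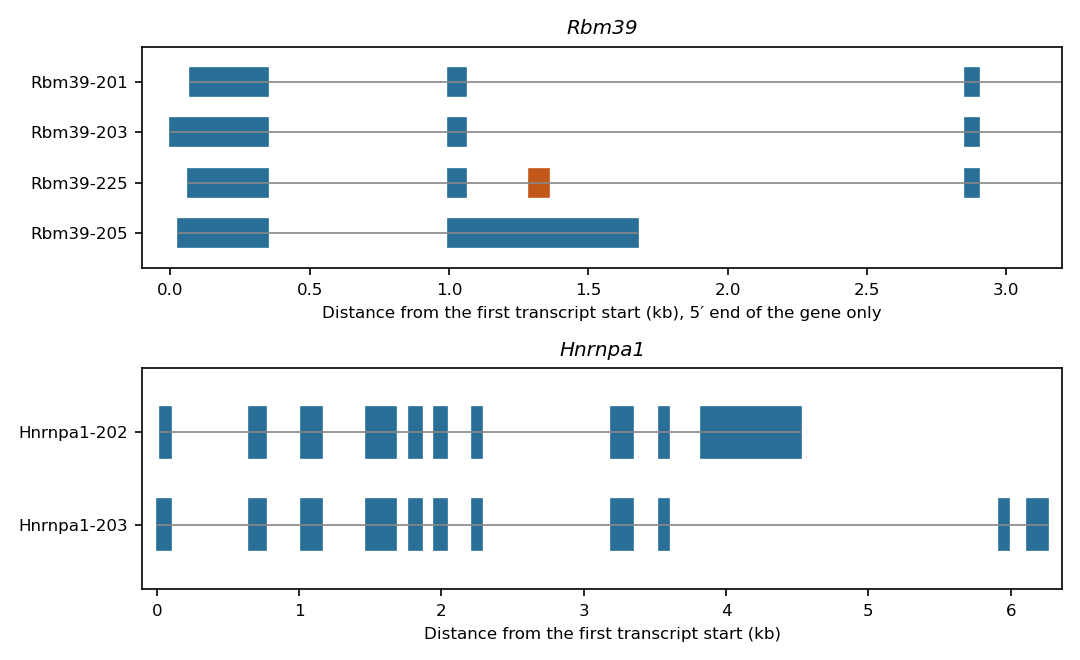
Exon maps (boxes, lines for introns) by distance in kb from the first transcript start, for the 5′ end of Rbm39 (4 transcripts) and for all of Hnrnpa1 (2 transcripts), with the printed Rbm39 exon in orange. The 73-nt Rbm39 exon stands alone in Rbm39-225 and lies within the long exon of Rbm39-205, while Hnrnpa1-203 replaces the last exon by 2 others further downstream.

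In Hnrnpa1 the share of the noncoding and decay class was 29, 27.3 and 26.6% in Torin libraries, 21.5, 28.8, 22.8 and 25.4% in stimulated libraries and 41.2, 43.7, 42.4 and 53.8% in naive libraries. All naive libraries lay above all others (stimulated minus naive log2 ratio -1.34, SE 0.21, limma adjusted p = 0.00135). Transcripts annotated as protein-coding stood at 286 ± 25.7 CPM in Torin (n = 3), 278 ± 34.6 CPM in stimulated and 44 ± 14.4 CPM in naive cells (n = 4 each). The noncoding and decay class stood at 109 ± 5.5, 90 ± 8.65 and 35 ± 5.64 CPM in those groups. Its level was thus also higher in cells given N4, although its share was lower.

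Most of the class in Hnrnpa1 was Hnrnpa1-203, a transcript annotated for decay with 2 exon junctions after its stop codon, the last 90 nt downstream of it. Its annotated reading frame spans 960 nt, so a place in this class does not mean that no protein is encoded. Hnrnpa1-203 held 19.9, 17 and 17.6% of Hnrnpa1 counts in Torin libraries, 15.8, 19.4, 13.2 and 15.6% in stimulated libraries and 38.5, 37.6, 38.4 and 49.2% in naive libraries. The naive group stood apart (-1.87, SE 0.21, limma adjusted p = 0.000606). The level of Hnrnpa1-203 went the other way, at 71.7 ± 6.31 CPM in Torin, 58.5 ± 7.76 CPM in stimulated and 31.7 ± 5.5 CPM in naive cells. The gene's other tested transcript annotated for decay, Hnrnpa1-204, went the other way without passing. It held 9.43 ± 0.72% in Torin (n = 3), 8.63 ± 2.02% in stimulated and 4.35 ± 1.4% in naive cells (n = 4 each). Its log2 ratio difference was 0.90 in stimulated minus naive cells (adjusted p = 0.0567, limma) and 1.07 in Torin minus naive cells (adjusted p = 0.0552, limma). Both passed with the replicate number as a block (limma adjusted p = 0.0368 and 0.0349). This transcript, below a share of 10%, was chosen after its values were seen.

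**Figure D4:**
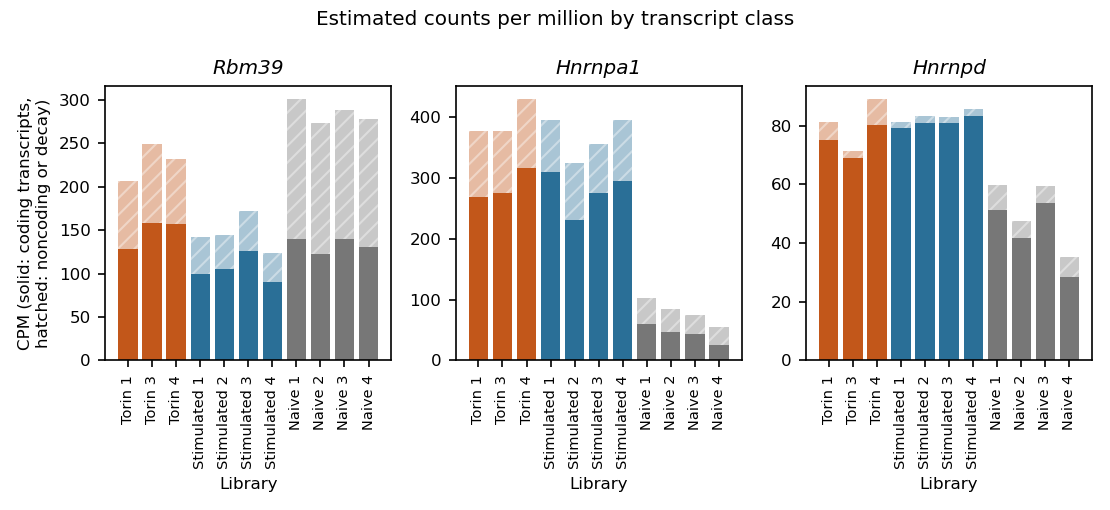
CPM in coding transcripts (solid) and in noncoding or decay-annotated transcripts (hatched, stacked) of Rbm39, Hnrnpa1 and Hnrnpd in each of 11 libraries. The hatched part of Rbm39 averages 81.5 CPM in Torin, 40.2 CPM in stimulated and 151 CPM in naive libraries, while Hnrnpa1 and Hnrnpd gain coding counts in both groups given N4. The hatched part of Hnrnpa1 averages 109 CPM in Torin, 90 CPM in stimulated and 35 CPM in naive libraries.

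Hnrnpd had a share of 7.56, 3.61 and 10% in Torin libraries, 2.50, 2.83, 2.33 and 2.86% in stimulated libraries and 14.4, 12.1, 10.2 and 18.8% in naive libraries. Stimulated libraries were the lowest, within a narrow range (stimulated minus naive log2 ratio -2.34, SE 0.31, limma adjusted p = 0.000595). Its transcript Hnrnpd-208, with an added 107-nt exon and a last junction 137 nt after the stop, held 3.95 ± 0.876% in Torin, 1.74 ± 0.355% in stimulated and 10.9 ± 4.09% in naive cells (-2.43, limma adjusted p = 0.00061).

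Hnrnpl had shares of 4.75, 3.98 and 3.92% in Torin libraries, 4.62, 3.24, 2.33 and 5.24% in stimulated libraries and 10.9, 12.1, 5.87 and 9.41% in naive libraries. The stimulated and naive groups came close at naive 3 without overlapping (stimulated minus naive log2 ratio -1.33, limma adjusted p = 0.00987). The printed Hnrnpl exon adds 56 nt before a TGA and is part of 2 of 13 transcripts. These held 3.9, 2.9 and 2.9% of counts in Torin libraries, 2.9, 1.4, 1.8 and 4.0% in stimulated libraries and 9.3, 10.4, 4.4 and 6.5% in naive libraries. With retained-intron transcripts alone, the Hnrnpl ratio change was -0.88 (adjusted p = 0.053, limma), and without the libraries of number 2 it was -1.13 (adjusted p = 0.0619, limma).

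Khdrbs1 had shares of 23.5, 14.9 and 11.6% in Torin libraries, 21.5, 14.4, 14.2 and 16.7% in stimulated libraries and 35.4, 39.7, 32.9 and 30.4% in naive libraries, with the naive group apart (-1.34, limma adjusted p = 0.00548). Nearly all of it was Khdrbs1-202, at 16.0 ± 6.05% in Torin, 16.2 ± 3.50% in stimulated and 33.8 ± 4.09% in naive cells (-1.34, limma adjusted p = 0.00981). This transcript too has a long annotated reading frame, of 1329 nt, with 3 exon junctions after the stop codon. Khdrbs1-201, annotated as protein-coding, had a log2 ratio change of 1.34 (limma adjusted p = 0.00917). The calls of both transcripts ended without the libraries of number 2 (-1.15 for Khdrbs1-202 and 1.16 for Khdrbs1-201).

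In Hnrnpu nearly all of the class was 1 transcript. Hnrnpu-205, a 2-exon transcript that lies wholly downstream of Hnrnpu-201, starting 171 nt past its 3′ end, held 29.3 ± 3.4% in Torin, 28.8 ± 8.15% in stimulated and 53.6 ± 10.8% in naive cells (-1.54, limma adjusted p = 0.0181). Stimulated 3 (39.8%) overlapped naive 1 (37.7%). The coding Hnrnpu-201 had a log2 ratio change of 1.47, and the share of the class one of -1.47 (limma adjusted p = 0.0152 and 0.00929). With transcripts annotated for decay alone the change of Hnrnpu was -0.73 (adjusted p = 0.596, limma). The calls of the class and of both transcripts ended without the libraries of number 4 or of number 2.

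Srrm1 had 2.88% in Torin, 2.40% in stimulated and 5.83% in naive cells on average (-1.10, limma adjusted p = 0.00272), and Elavl1 and Hnrnpa2b1 completed the 9 that were lower. The 1 higher share was that of Hnrnpul2 (0.79, limma adjusted p = 0.0135). Its noncoding transcripts had only 0.0975 CPM in stimulated and 0.0642 CPM in naive cells, under the prior of 0.5 CPM, and it did not pass with a prior of 0.1 CPM (adjusted p = 0.106, limma) or without the libraries of number 2 (0.67).

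**Figure D5:**
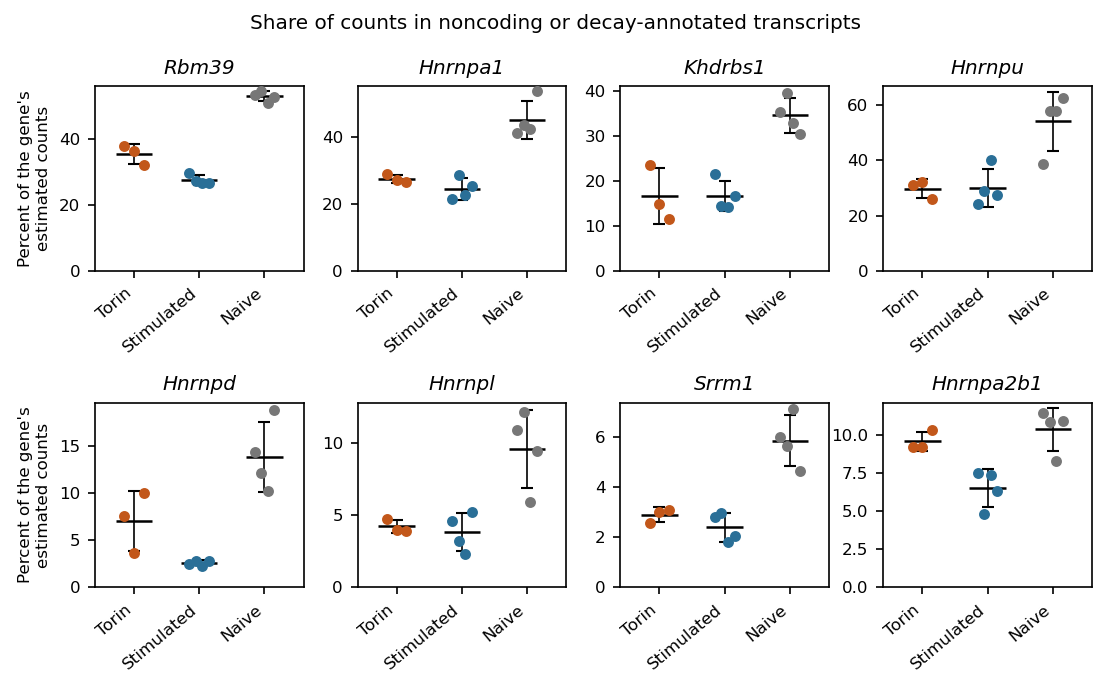
Percent of each gene's estimated counts in noncoding or decay-annotated transcripts for 8 members in Torin (n = 3), stimulated (n = 4) and naive (n = 4) libraries, with points for libraries, a line for the mean and bars for the SD. Rbm39 lies at 32.2 to 38.1% in Torin, 26.6 to 29.8% in stimulated and 51.2 to 54.8% in naive libraries.

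Torin did not move the share of any of the 28 members past the limma threshold when set against stimulated cells, where 0.296% of all genes were higher and 0.309% lower. At an unadjusted p under 0.05, 5 of the 28 passed, as did 12.6% of the 8095 genes. Rbm39 had a log2 ratio difference of 0.53 (adjusted p = 0.211, limma), with all Torin libraries above all stimulated ones. For Hnrnpd it was 1.23 (adjusted p = 0.148, limma), also without overlap. Hnrnpa2b1 had 9.18, 9.20 and 10.3% in Torin libraries, against 7.51, 4.79, 7.33 and 6.32% in stimulated libraries (0.62, adjusted p = 0.25, limma).

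Against naive cells, Torin cells had lower shares in 7 members and a higher share in none, where 6.46% of all genes were lower and 7.83% higher (14.3% in either direction). The log2 ratio change was -1.03 for Rbm39 (limma adjusted p = 0.00344), -1.11 for Hnrnpa1 (adjusted p = 0.00931) and -1.38 for Khdrbs1 (adjusted p = 0.0113). Hnrnpa1 did not pass with a prior of 0.1 CPM (-1.12, limma adjusted p = 0.0556), and Khdrbs1 did not with retained-intron transcripts alone (-0.65). Leaving out Torin 1 left 3 members called, all lower, where 3.77% of all genes were lower and 4.97% higher. Leaving out naive 4 left 4 called, all lower, where 5.02% of all genes were lower and 6.31% higher. Without the libraries of number 4 in all groups none was called, with changes of -0.92 for Rbm39, -0.91 for Hnrnpa1 and -1.20 for Khdrbs1 (adjusted p = 0.0537, 0.0821 and 0.0863, limma), where 1.96% of all genes were lower and 3.73% higher. Without the libraries of number 2, 4 members were called, all lower, where 5.1% of all genes were lower and 6.28% higher.

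Transcript usage could be tested for 135 transcripts of 37 members, among 31912 transcripts. In stimulated against naive cells 11 were higher and 18 lower, in 19 genes, where 9.06% of all transcripts were higher and 6.64% lower (15.7% in either direction). Among coding changes, Hnrnpdl-202 held 55.8, 57.5 and 55.1% in Torin libraries, 53.5, 62.2, 63.4 and 59.7% in stimulated libraries and 34.6, 34.0, 35.9 and 36.3% in naive libraries (1.42, SE 0.17, limma adjusted p = 0.000683). The naive group was narrow and well below the others. The coding Hnrnpdl-207, with 1 exon fewer, held 13.7 ± 2.53% in Torin, 9.51 ± 2.46% in stimulated and 26.5 ± 9.92% in naive cells (-1.70, limma adjusted p = 0.00766). The intron-retaining Hnrnpll-204 held 3.07 ± 4.04%, 1.59 ± 1.52% and 10.4 ± 2.48% in those groups (-1.79, limma adjusted p = 0.0126), and did not pass without the libraries of number 2 (-1.85). Called transcripts with a share of at least 10% in a group numbered 21, of which the 12 with the smallest p are described. The 9 others had log2 ratio changes between -2.26 and 3.41.

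In Torin against stimulated cells no member transcript passed, where 0.107% of all transcripts were higher and 0.154% lower (0.26% in either direction). At an unadjusted p under 0.05, 10 of the 135 passed, as did 10.3% of all transcripts. Srrm2-206 came closest, at 2.08, 2.62 and 1.99% in Torin libraries, against 7.46, 12, 19.6 and 11.9% in stimulated libraries (-2.49, adjusted p = 0.0598, limma). The groups stood far apart, and the transcript passed without naive 4 (limma adjusted p = 0.0412). Against naive cells, 7 transcripts were higher in Torin cells and 8 lower, where 5.47% of all transcripts were higher and 3.95% lower (9.43% in either direction). The members' calls included Srrm2-206 (-2.16), Hnrnpdl-202 (1.21) and Hnrnpa1-203 (-1.64).

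The usage calls depended on the test. With edgeR diffSpliceDGE, 3 member transcripts were higher and none lower in stimulated against naive cells, none passed in Torin against stimulated cells and 1 was higher in Torin against naive cells. Of all transcripts it called 0.249% higher and 0.27% lower in stimulated against naive cells. In Torin against stimulated cells it called 0.0416% higher and 0.0624% lower, and in Torin against naive cells 0.194% and 0.208%. Leaving out any 1 Torin library left 7 or 8 calls in Torin against naive cells. Of all transcripts, 3.17 to 3.71% were then higher and 2.23 to 2.69% lower. Without the libraries of number 4, 3 member transcripts were higher and 14 lower in stimulated against naive cells, where 4.82% of all transcripts were higher and 3.44% lower. In Torin against naive cells 1 was lower (1.83% and 1.33% of all transcripts), and Hnrnpdl-202 (1.26) and Srrm2-206 (-1.77) did not pass. Without the libraries of number 2, 4 member transcripts were higher and 8 lower in stimulated against naive cells (6.38% and 4.67% of all transcripts). In Torin against naive cells 3 were higher and 4 lower (4.36% and 3.03% of all transcripts). Of the transcripts given values here, only Rbm39-203 in stimulated against naive cells passed with diffSpliceDGE, and all kept their direction with it.

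Among 44 other RNA-binding and splicing genes, 22 were higher, 5 lower and 17 not called in stimulated against naive cells. Of all genes tested, 19.2% were higher and 20.2% lower. Ybx3, a cold-shock domain protein, and Fubp1 rose most, by 2.95 and 1.78 on the log2 scale, while Cirbp and Rbm33 fell by 2.51 and 1.56 (edgeR adjusted p of 0.00235, 0.000234, 1.82e-05 and 0.000116). Cirbp is the cold-inducible relative of Rbm3, the member with the second largest rise. Cirbp stood at 50.4 ± 4.27 CPM in Torin (n = 3), 23.7 ± 8.21 CPM in stimulated and 135 ± 13 CPM in naive cells (SD, n = 4 each), the reverse order of Rbm3.

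In Torin against stimulated cells 4 of the 44 were higher and none was lower, where 2.32% of all genes were higher and 2.3% lower. Cirbp rose by 1.09 and the paraspeckle gene Pspc1 by 0.92 (edgeR adjusted p = 0.0289 and 0.0325). The Cirbp call ended without any 1 of the Torin libraries or stimulated 2 (1.03 to 1.18). That of Pspc1 ended without any 1 of the Torin libraries, stimulated 1, stimulated 2 or stimulated 4 (0.86 to 1.01), and with the replicate block (0.89). In Torin against naive cells 23 of the 44 were higher and 3 lower, where 16.4% of all genes were higher and 15.8% lower. Ybx3 (3.10) and Fubp1 (1.86) were again at the top, and Cirbp fell by 1.42. The 44 genes were likewise listed with earlier results known.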

How the data were processed

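Per the labels' protocols, poly(A) RNA of the 11 libraries was amplified by the SMARTer method for small inputs. STAR 2.7.1a, SAMtools 1.9, StringTie 2.1.0 and DESeq2 1.30.1 with build mm39 are listed in the submitters' processing notes. The authors deposited estimated counts per gene and per transcript, as whole numbers; how reads shared between transcripts or copies were divided, and whether strand was used, is not given in the sources used here. Symbols, transcript names and classes came from GENCODE M21 (GRCm38), matched by ID without version (94.0% of genes, 97.1% of transcripts). The printed coordinates are those of GRCm38, not of mm39. The sequence and counts of 1 other exon are not reported here.

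Genes were filtered with filterByExpr at a minimum count of 10 and tested with edgeR 4.0.16 (quasi-likelihood, TMM, group means over all 11 libraries) in R 4.3.3, with Benjamini-Hochberg adjustment over all genes and a threshold of 0.05. Usage and noncoding share were tested with limma 3.58.1 on log2 ratios with a prior of 0.5 CPM, for transcripts with a mean share of at least 5% and genes with a class share of at least 1% in a group. The lowest chi-square per gene between libraries of a group was 290.6. The scale of the estimated counts could not be traced to reads, so this value cannot show whether any libraries were duplicates. The common coefficient of biological variation was 0.79. Same-numbered libraries deviated together (correlation of deviations 0.302 to 0.453 between stimulated and naive, 0.217 to 0.552 between Torin and stimulated and 0.171 to 0.412 between Torin and naive libraries), so the numbers were taken to pair them. Fits with the number as a block, with DESeq2 1.42.0, with other scaling, filters and priors, with diffSpliceDGE and without single libraries or numbers were also run.

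The gene fit and the ratio fit, at their main settings, were tested on simulated data for stimulated against naive cells. The other fits were not simulated. The gene simulation had a smaller spread than these data, so it does not show how the gene test performs at their spread. The ratio fit recovered few changes in a first simulation that included low counts and wide spread. The simulation was then changed to genes of at least 10 CPM with small spread, where it recovered most of the larger changes, so ratio tests of low-count genes may miss changes.

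The members, lists and tests were chosen with earlier results of these data known. Named were the members, of their transcripts past the threshold with a share of at least 10% in a group the 12 with the smallest p per comparison, up to 8 genes of the share test and, of 44 other RNA-binding genes, the 2 largest rises and 2 largest falls per comparison. The values printed for Torin against naive cells were shortened to a few after they and their alternatives had been seen, and the counts of lost calls stand for the rest. Fits of usage and noncoding share without the libraries of number 4 or 2, and Hnrnpa1-204, were added after the data were seen.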

Additional observations from a re-analysis of the deposited data

Results flagged for a closer look

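In 12 of 132 groups of 4 libraries, 1 library stood apart from the others by Dixon's criterion (a gap over 0.829 of the range). Chance alone gives about 1 such group in 20. No explanation was tested.

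At gene level, Hnrnpa2b1 had 412 CPM in stimulated 4 (the others 366 to 369), and Hnrnpu had 246 CPM in stimulated 3 (207 to 211) and 116 CPM in naive 4 (134 to 137). Hnrnpf had 188 CPM in naive 1 (99.7 to 109), Hnrnpk 337 CPM in naive 1 (221 to 224) and Hnrnph3 24.6 CPM in naive 4 (28.9 to 29.7).

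For the noncoding and decay share, Hnrnpul1 had 3.73% in stimulated 2 (1.17 to 1.5%), Hnrnph1 24.5% in stimulated 4 (5.81 to 6.35%) and Hnrnpr 3.47% in stimulated 1 (0.599 to 0.996%). Tial1 had 39.8% in naive 2 (18.1 to 21.7%), Hnrnpdl 23.1% in naive 3 (41.8 to 44.6%) and Hnrnpll 81.1% in naive 1 (12.1 to 18.3%).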

How the results depend on the processing

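Of 1847 recomputed values of 97 named results, 1681 kept direction and side of the threshold, 115 lost the threshold, 44 passed it and 7 turned sign. None of the 7 was called. With library totals alone, stimulated minus naive changes became -0.27 for Hnrnpf, -0.30 for Hnrnpk, -0.30 for Hnrnpr, -0.32 for Tial1, -0.26 for Khdrbs1 and -0.28 for Srrm1, and Hnrnpa0 ranged from -0.24 to 0.05 over omissions of 1 library. The cause was not tested.

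The 25 members called in stimulated against naive cells became 20 without number 4, and 26 with the replicate block. In Torin against stimulated cells, 2 members became 9 with DESeq2, 4 with library totals alone, 8 at a mean CPM of at least 5, 1 without a filter, 1 with the replicate block, 0 without number 4 or number 2, and 0 to 3 without 1 library. In Torin against naive cells, 19 became 10 without number 4. In relation to the median of all genes, the medians of the members moved by at most 0.02 between scalings, which is built in, as scaling shifts all genes nearly alike. With library totals alone 3 members were higher and 10 lower in Torin against naive cells.

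For usage in stimulated against naive cells, 29 calls became 19 with a prior of 0.1 CPM, 3 with diffSpliceDGE, 17 without number 4 and 12 without number 2. In Torin against stimulated cells 0 became 2 with a prior of 2 CPM and 0 to 1 without 1 library. In Torin against naive cells 15 became 3 with a prior of 0.1 CPM, 9 with only the libraries of both groups, 1 with diffSpliceDGE, 1 without number 4, 7 without number 2 and 7 to 16 without 1 library. For the noncoding share, 10 calls in stimulated against naive cells became 6 with decay-annotated transcripts only and 5 without number 2. In Torin against stimulated cells 0 became 2 with a prior of 2 CPM. In Torin against naive cells 7 became 2 and 11 with priors of 0.1 and 2 CPM, 4 with decay-annotated and 3 with retained-intron transcripts only, 0 without number 4, 4 without number 2, and 3 to 7 without 1 library.

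Of the 44 other RNA-binding genes, the 4 called in Torin against stimulated cells became 7 with DESeq2, 1 without a filter, 2 with only the libraries of both groups, 0 without number 4 or number 2 and 0 to 5 without 1 library. The 26 in Torin against naive cells became 16 with library totals alone. The alternatives for these 44 genes, and those without a number for usage and share, were added after the data were seen. The replicate block ended the calls of Hnrnpul2 and Pspc1 and added those of Hnrnph2 and Hnrnpa1-204, and changed no other named call.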
